A study of Caenorhabditis elegans with 2 samples.

Results

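The LIM homeobox genes of Caenorhabditis elegans encode transcription factors with a pair of zinc-binding LIM domains and a homeodomain. Their 7 members were taken by name, namely lin-11, lim-7, mec-3, ttx-3, lim-4, lim-6 and ceh-14, out of 19973 protein-coding genes on the 6 nuclear chromosomes. Each was examined over its gene body and 20 kb on either side. LIN-11 itself was the protein immunoprecipitated. The worms were late embryos, aged 4.25 hours by the labels, of mixed sex, collected after egg bleaching. Their strain, OP62, carries the mutation unc-119(ed3) on chromosome III and the transgene wgIs62, which makes LIN-11 with a C-terminal GFP-FLAG tag. Both of the 2 biological replicates are of this strain, so there is 1 group and no second condition. Chromatin from whole animals was sheared by sonication and recovered with an antibody against GFP, so any cell type that makes the protein contributes to 1 average.

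LIM homeodomain proteins specify cell identity, above all in neurons. The homeodomain recognises short AT-rich DNA sites, and the LIM domains bind partner proteins such as the LIM domain-binding protein encoded by ldb-1 and, for some members, other homeodomain proteins. In the worm, lin-11 acts in vulval and uterine development and in several neuron classes, mec-3 in the touch receptor neurons, ttx-3 in the AIY interneurons, lim-4 in the AWB olfactory neurons, lim-6 in GABA-producing neurons, ceh-14 in the AFD thermosensory neurons and lim-7 in the gonadal sheath. Several such genes are known to maintain their own transcription.

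The regions came from 4 deposited lists. Replicate 1 has a list of 21441 regions and replicate 2 one of 18735. The pooled list, made from both alignments, has 20692. A list of 560 regions, 539 of them nuclear, passed the authors' test of reproducibility between replicates, and those are called reproducible here. Each region has a signal value from the authors' peak caller, used only to rank regions within 1 list, with rank 1 the strongest. The lists give no read counts, so the depth is unknown. Weak entries fill most of the pooled list, whose median signal value was 47.6 against a maximum of 4110. That maximum is outside the nuclear chromosomes, and the strongest nuclear region has rank 8.

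Within 20 kb, lin-11 had far more regions than any other member. There were 23 pooled-list regions within 20 kb of lin-11, 12 at lim-6, 9 at lim-7, 8 each at ttx-3, lim-4 and ceh-14, and 0 at mec-3. The median over all protein-coding genes was 8, with 5 and 11 as the quartiles. lin-11 thus exceeded 99.0% of genes, while 0.991% of genes had at least as many regions as it did. lim-6 exceeded 76.1% of genes, lim-7 55.9%, and ttx-3, lim-4 and ceh-14 47.8%, so lim-6 lay just above the upper quartile and these other 4 between the quartiles. mec-3 was at the other end, among the 2.14% of genes with no pooled-list region.

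**Figure D1:**
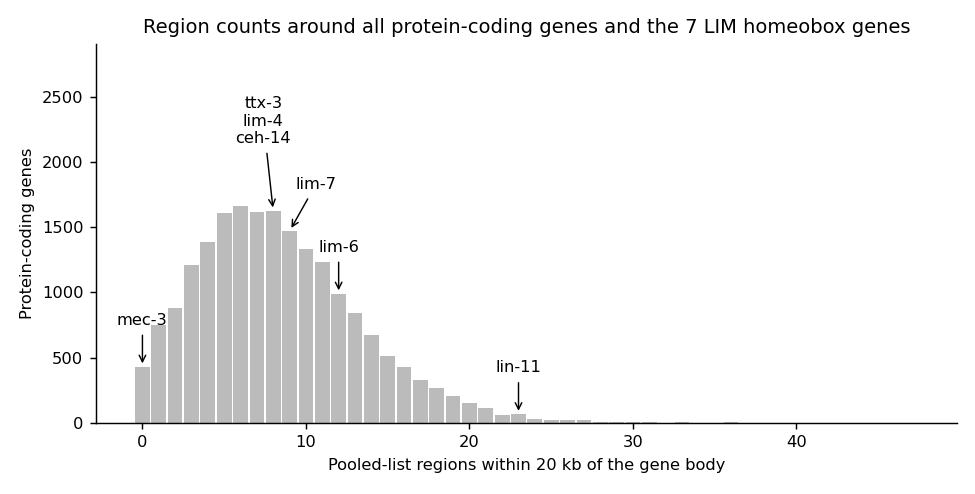
Number of protein-coding genes (y axis) with each number of pooled-list regions within 20 kb of the gene body (x axis), with arrows at the 7 LIM homeobox genes. lin-11, at 23, is in the right tail and mec-3 is at 0. lim-7, ttx-3, lim-4 and ceh-14, at 8 or 9, lie near the median of 8. lim-6, at 12, lies just above the upper quartile of 11.

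The extremes of the family were the same in each replicate's own list, with lin-11 first and mec-3 last. At lin-11 there were 23 regions in replicate 1 and 20 in replicate 2, each more than around 99.0% of genes. At lim-6 the counts were 9 and 11, at lim-7 8 and 13, at lim-4 10 and 6, at ceh-14 9 and 7, and at ttx-3 8 and 7. The members between the extremes changed places from one replicate to the other, so their order lay within the replicate spread. lim-7 moved most, from above 44.7% of genes in replicate 1 to above 86.9% in replicate 2. The counts at mec-3 were 0 and 3.

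**Figure D2:**
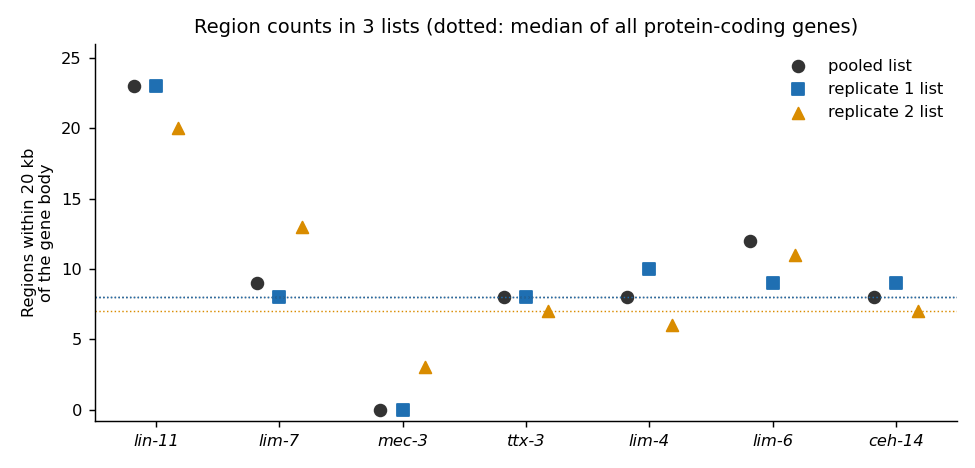
Regions within 20 kb of the gene body (y axis) of each LIM homeobox gene (x axis) in the pooled list and in each replicate's list, with dotted lines at the median of all protein-coding genes in each list. lin-11 is highest at 20 to 23 and mec-3 lowest at 0 to 3 in all 3 lists, and the other 5 overlap.

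Reproducible regions lay near 3 of the 7 members, lin-11 with 5, lim-7 with 1 and ttx-3 with 1. Of all protein-coding genes, 20.2% had at least 1 in the same window, and over 7 genes the count of 3 says little about the family. The 5 at lin-11 were not matched by any other gene. The next number, 4, was reached by 21 genes on 3 chromosomes. Of those genes, 2 are neighbours of lin-11 whose 4 regions are among its 5. By the best-ranked region in the window, lin-11 (rank 70 of the pooled list), lim-7 (74) and ttx-3 (153) stood above the rest, with 2.34%, 2.47% and 5.82% of genes having a stronger one. The best regions at lim-4 (rank 1262), lim-6 (2727) and ceh-14 (6393) were weaker than those of 36.3%, 59.0% and 82.2% of genes.

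**Figure D3:**
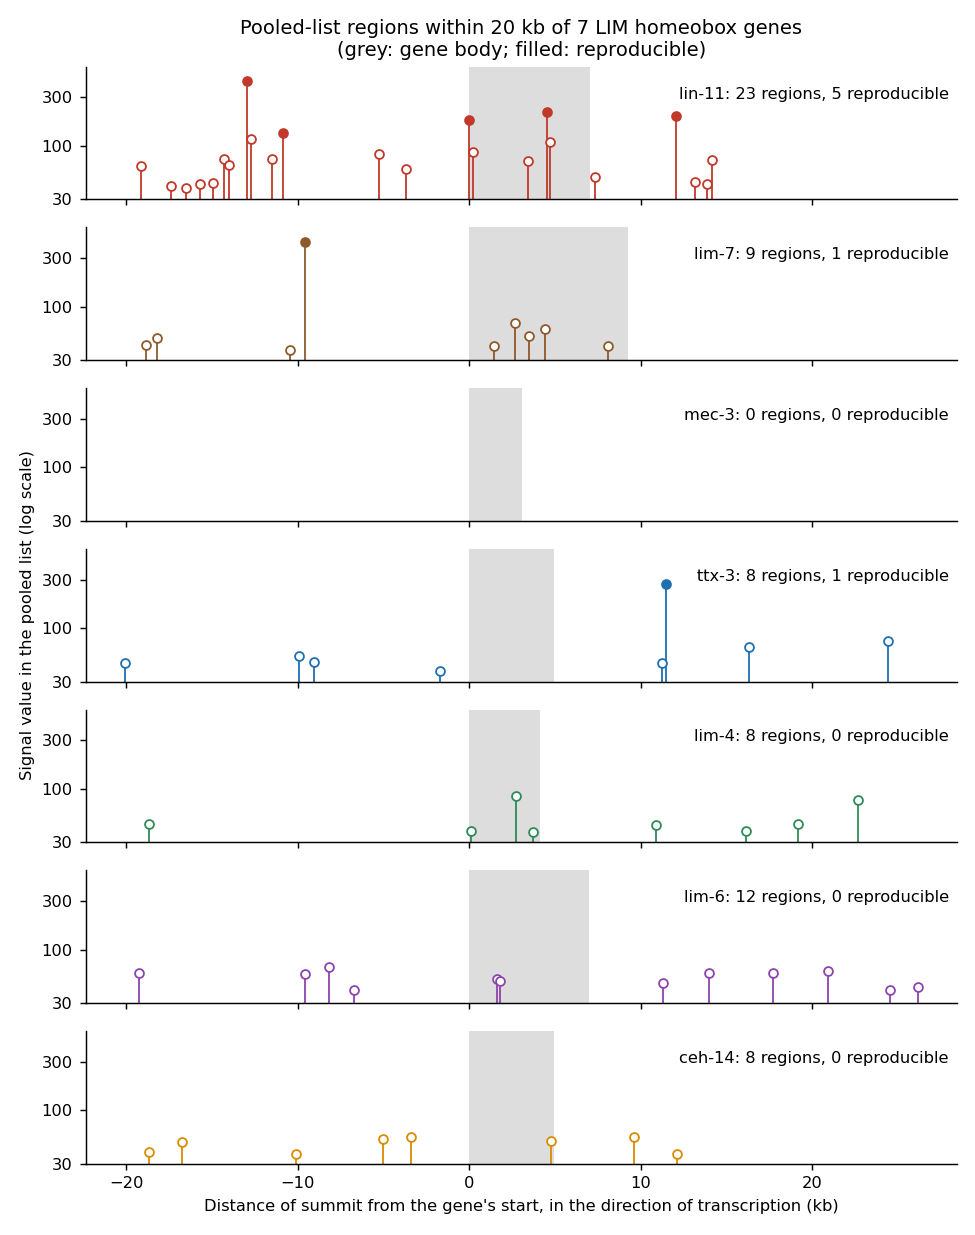
Signal value in the pooled list (y axis, log scale) of each region against the distance of its summit from the gene's start in kb (x axis), with the gene body in grey and reproducible regions filled. lin-11 has regions on both flanks and in the gene body, 5 of them filled, lim-7 and ttx-3 have 1 strong region each outside the gene, and mec-3 has none.

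What the strongest regions lay next to differed among these 3 members. None of the 5 reproducible summits at lin-11 had a gene of a small noncoding RNA (tRNA, snoRNA, snRNA, miRNA or rRNA) within 200 bp, as was also true of 293 of the 539 nuclear reproducible regions (54.4%). The nearest such gene lay over 100 kb from every one of them. The reproducible regions of lim-7 and ttx-3, in contrast, both lay at a small RNA gene, 45 bp from the snoRNA gene T19B4.8 and at a tRNA gene respectively. Leaving out summits at small RNA genes left lin-11 as the only member with a reproducible region.

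The lin-11 gene (WBGene00003000, ce11, chromosome I, 10248288 to 10255327, plus strand) had a reproducible region at its start. That region (10248060 to 10248489) had its summit 13 bp upstream of the annotated start, a signal value of 179 and rank 288 in the pooled list. It ranked 278 in replicate 1 and 319 in replicate 2. A second lay in an intron, 4511 bp downstream of the start (10252584 to 10253013, signal value 217, rank 212), with ranks of 184 and 219. Both placed nearly alike in the 2 replicates. In all, 5 pooled-list regions overlapped the lin-11 gene body, as many as at lim-7 (5) and more than at lim-4 (3), lim-6 (2), ceh-14 (1), ttx-3 (0) and mec-3 (0).

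The other reproducible regions were outside the gene. The strongest of all (10235115 to 10235544, signal value 437, rank 70) was 12958 bp upstream, in the noncoding RNA gene Y106G6E.7, with ranks of 101 in replicate 1 and 46 in replicate 2. Its nearest protein-coding start was that of csnk-1, which encodes a casein kinase, at 1944 bp. Next to it an intergenic region 10873 bp upstream (10237200 to 10237629, signal value 135, rank 454) was less even, at rank 390 in replicate 1 and 2844 in replicate 2. Downstream, a region in an intron of ZC247.2 (10260130 to 10260559, signal value 195, rank 251) lay 12057 bp from the lin-11 start and ranked 327 and 207. Of the 5, 4 (all but the one at rank 454) were therefore among the 560 strongest regions of both replicates.

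The 18 other pooled-list regions at lin-11 were weaker, from rank 574 down to 18120. Of the 23, 16 were among the 5173 strongest regions of the pooled list, called strong regions below. For a replicate, strong regions are the 5360 highest of replicate 1 or the 4683 highest of replicate 2. The median rank of the 23 was 2090, against 10356.5 over all nuclear regions, and ranged from 6617 at lim-6 to 12609.5 at lim-4 among the 5 other members with regions. Only 3 genes in all, 0.015% of protein-coding genes, had at least 16 strong regions in their window. They were lin-11, its neighbour csnk-1 and egl-27, an MTA-like chromatin factor gene on chromosome II, each with 16, against a median of 2 over all genes. In replicate 1 lin-11 had 15 strong regions, and 1 gene had more. In replicate 2 it had 14, with 0 genes above it. In the pooled list the other members had 5 at lim-6, 3 at lim-7, 3 at ttx-3, 2 at lim-4 and 0 at ceh-14 and mec-3, and in either replicate none had more than 4. The 7 regions at lin-11 outside the strong ones were close to the median over all genes, 6. This measure was chosen after the values had been seen. It counts overlapping regions separately, such as those at ranks 70 and 574, and was not repeated with overlapping regions merged.

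Most regions at lin-11 were found in both replicates. Of its 23, 15 (65.2%) overlapped a region of each replicate's list, 6 a region of only one and 2 of neither. lim-7 was as high, with 6 of 9 (66.7%). The counts in both were 4 of 8 at ttx-3, 2 of 8 at lim-4, 2 of 12 at lim-6 and 1 of 8 at ceh-14. Over all nuclear pooled-list regions the share was 40.5%. Among the 23 there are 3 pairs in which a second region lies about 200 bp downstream of a reproducible one and overlaps it, and the ranks given for a pair are the best of the replicate regions it overlaps. Replicate 2 lists a region of its own for each of the 3 second ones, at ranks of 430, 465 and 275. Replicate 1 does so for 2 of them, at ranks of 9044 and 12272. For the one at pooled-list rank 574, replicate 1 lists a region (10235743 to 10236162, rank 662) that overlaps only its downstream end. With overlapping regions merged, lin-11 had 18 and exceeded 97.8% of genes.

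**Figure D4:**
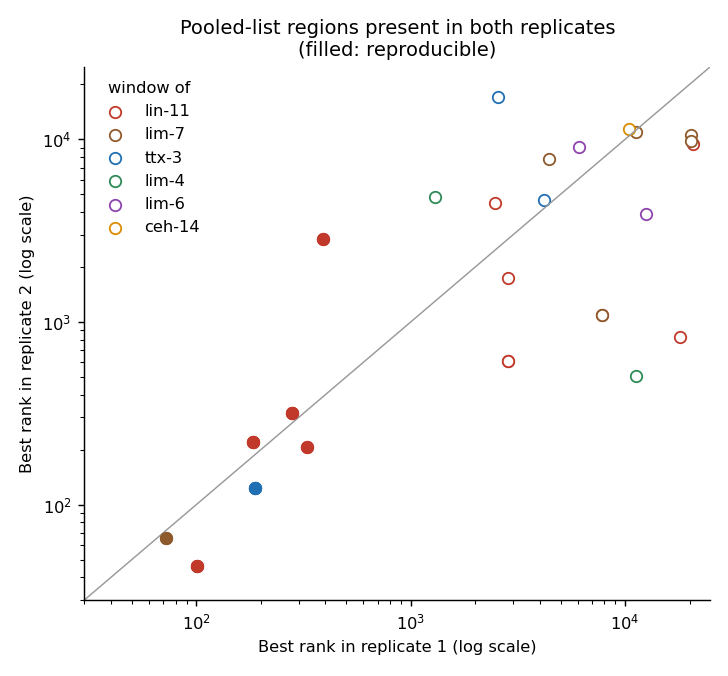
Best rank of an overlapping region in replicate 1 (x axis, log scale) and replicate 2 (y axis, log scale) for the pooled-list regions around the members that overlap a region of both lists, coloured by member, with reproducible regions filled and the line of equal ranks in grey. The filled points lie near the line at the lower left, except the lin-11 region at ranks 390 and 2844.

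The dense stretch around lin-11 was measured as a run. Runs of regions were defined, after the data had been seen, as summits no more than 10 kb apart. In the pooled list the run through lin-11 held 26 regions over 39923 bp, from 25780 bp upstream of the lin-11 start to 14143 bp downstream of it, or 6.51 regions per 10 kb against 2.06 over the nuclear genome. It was followed on the upstream side by 24940 bp and on the downstream side by 19940 bp without a summit. By the definition, every run has ends and the gaps there exceed 10 kb. Of all gaps between neighbouring summits in the pooled list, 2.12% and 3.55% were longer than those at lin-11. For scale, 10.2% were longer than 10991 bp. The pooled-list run through lim-6 ended at gaps of 15344 and 19303 bp, and that through ceh-14 at 13534 and 11366 bp. At lin-11, replicate 1 gave nearly the same limits, 25775 bp upstream and 15205 bp downstream. It had 27 regions there, between empty stretches of 25017 bp and 21257 bp. In replicate 2 the run went from 20627 bp upstream to 12067 bp downstream with 21 regions, between empty stretches of 34039 bp and 19333 bp.

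The run was not limited to the lin-11 gene. It also covered csnk-1 upstream and ZC247.2 downstream. Each of these had 4 reproducible regions in its own window, all of them among the 5 at lin-11. Only the one at rank 251, in ZC247.2, had its summit within either neighbouring gene. Within it the 5-kb bin from 15 to 10 kb upstream of the start held 7 summits in the pooled list, 5 in replicate 1 and 6 in replicate 2. The mean of that bin over all genes in the pooled list was 0.954. No other bin of the run held more, and in replicate 1 the first 5 kb downstream of the start held as many. With a window of 50 kb either side, which takes in the empty stretches, lin-11 had 29 regions and exceeded only 82.0% of genes. Its lead over the family ended there, since lim-4 also had 29 and lim-7 had 24.

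**Figure D5:**
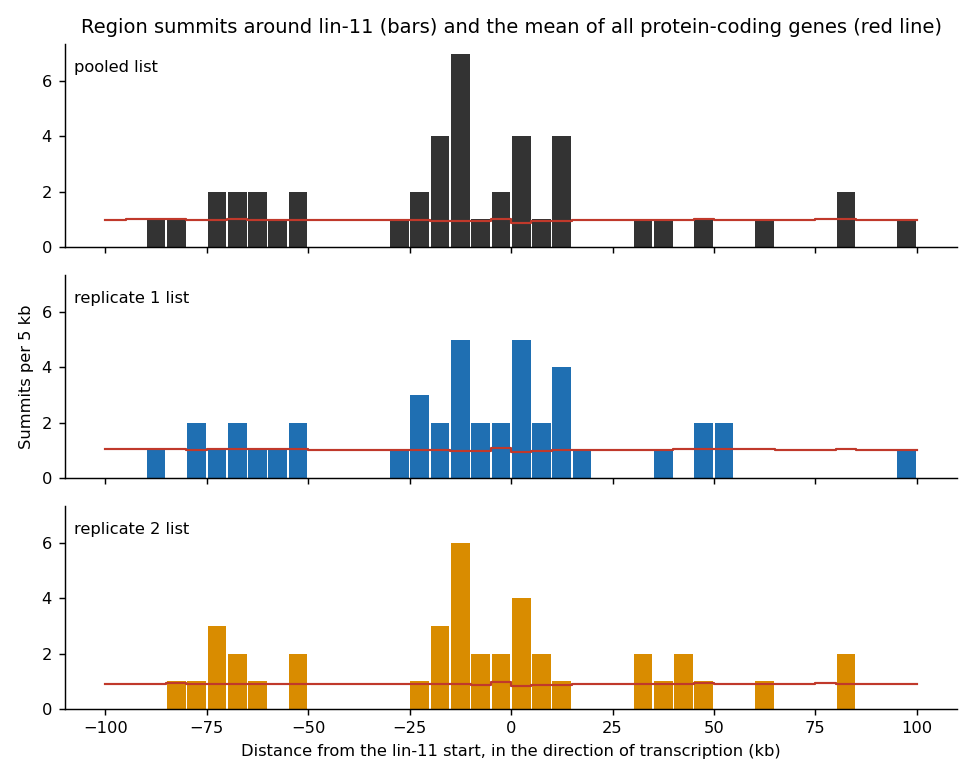
Summits per 5 kb (y axis) by distance from the lin-11 start in kb (x axis) in the pooled list and in each replicate's list, with the mean of all protein-coding genes as a red line. In each list the summits crowd between about 25 kb upstream and 15 kb downstream, with empty bins on both sides of that stretch.

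Sequence from the tagged transgene and from the chromosomal gene maps to the same place. How many copies of the transgene the strain holds, how much worm DNA flanks lin-11 in it, and whether the control alignment came from this strain are not given in the labels or notes. Binding of LIN-11 at its own locus and extra copies of that locus in the immunoprecipitated chromatin cannot be told apart from these lists. The measured facts are the high count of strong regions beside a common count of others, and the run's limits in both replicates. That a run has limits at all follows from its 10-kb definition. Also measured are the inclusion of both neighbouring genes and the spread of signal values within the window, from 39.0 to 437. Without the regions that overlap a reproducible one, 15 pooled-list regions remained at lin-11, more than around 89.8% of genes. At unc-119 (WBGene00006843, chromosome III), the gene mutated in the strain, 12 pooled-list regions, 3 of them strong, and 0 reproducible ones were listed.

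Its neighbour csnk-1, with 4 reproducible and 21 pooled-list regions, shares part of its window with lin-11. More than 100 kb away, the 5 genes most like lin-11 by the number of reproducible regions, and then of pooled-list regions, all came from 1 place on chromosome II. W03C9.1 and W03C9.6 had 4 reproducible and 21 pooled-list regions each, W03C9.2 had 4 and 20, rab-7, a small GTPase of late endosomes, had 4 and 19, and acbp-6, of the acyl-CoA-binding protein family, had 4 and 18. Their windows overlap, so they share regions, and 2 of the 4 reproducible ones lay at small RNA genes. Of the 198 genes with at least 23 pooled-list regions, 57 (28.8%) had a reproducible region, against 20.2% of all genes. Those with 3 or more numbered 7 (3.54%), against 113 of all genes (0.566%). Most of the 198, 141 genes, had none. These dense genes were long, with a median of 12553.5 bp against 2027 bp for all genes, and longer genes have longer windows. lin-11, at 7040 bp, kept its place per length, with 4.89 regions per 10 kb of window, more than 99.1% of genes, against a median of 1.82.

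lim-7 (WBGene00002989, chromosome I, 5716574 to 5725809, plus strand) had the second strongest region of the family. Its reproducible region (5706836 to 5707139, signal value 430, rank 74) was intergenic, 9573 bp upstream of the lim-7 start, with ranks of 72 and 66 in the replicates. The nearest protein-coding start, of pamn-1, which encodes a peptide-amidating enzyme, was 4845 bp away. Within the gene itself lay 5 pooled-list regions, 4 of them intronic and 1 in a coding exon, with signal values of 41.1 to 69.3. The strongest of these, in an intron 2648 bp downstream of the start, ranked 2560 in the pooled list, 4430 in replicate 1 and 7827 in replicate 2. The one in the coding exon ranked 4355, and 7763 and 1091. None of the 5 was within 1000 bp of the start.

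The remaining members lie elsewhere in the genome. ttx-3 (WBGene00006654, chromosome X, 11764456 to 11769378, minus strand) had no pooled-list region within its gene body. Its reproducible region (11757691 to 11758120, signal value 271, rank 153) lay 11472 bp downstream of the start, beyond the end of the gene, and ranked 187 in replicate 1 and 123 in replicate 2. The summit was inside a gene for tRNA-Leu (WBGene00014286), and the nearest protein-coding start, of lact-7, was 1203 bp away. The other 7 regions had signal values of 38.2 to 74.5. The strongest of them were near C40H5.2, at 1102 bp (rank 1977) and in one of its introns (rank 3163). The only one upstream of ttx-3 within 5 kb of its start lay 1712 bp away (signal value 38.2, rank 19039). It overlapped a region of replicate 2 (rank 7957) and none of replicate 1.

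Sequences within 50 bp of a summit are shown for the ttx-3 and ceh-14 regions that turn on a feature of the DNA. The first is the reproducible region at the tRNA gene, with the bases of that gene in capitals. The gene is on the minus strand and runs on to the left of the window. The others are the regions that hold TAATTA or TAATTG, taken here as core sites of LIM homeodomains, with these sites on either strand in capitals. All are on ce11, plus strand, from RefSeq's sequence of that assembly. They cover chrX:11757856-11757956 and chrX:11771040-11771140 for ttx-3, and chrX:7520581-7520681 and chrX:7536107-7536207 for ceh-14.
ttx-3, tRNA gene: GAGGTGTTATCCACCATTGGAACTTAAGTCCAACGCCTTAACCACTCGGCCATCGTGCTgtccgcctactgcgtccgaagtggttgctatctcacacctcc
ttx-3, upstream: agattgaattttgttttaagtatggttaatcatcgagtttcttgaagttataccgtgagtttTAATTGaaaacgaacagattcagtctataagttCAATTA
ceh-14, downstream: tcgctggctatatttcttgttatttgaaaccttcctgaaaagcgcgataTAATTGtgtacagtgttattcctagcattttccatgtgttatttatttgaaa
ceh-14, upstream: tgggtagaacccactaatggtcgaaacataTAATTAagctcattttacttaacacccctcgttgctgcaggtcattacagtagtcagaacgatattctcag

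The printed regions with a site were weak ones, with ranks of 19039 at ttx-3, and 19731 and 6393 at ceh-14. Across the family, TAATTA was within 50 bp of 2 of the 68 pooled-list summits (2.94%, against 4.48% of all nuclear summits) and TAATTG of 7 (10.3% against 7.02%), both strands counted. At lin-11 TAATTA was at 0 of 23 and TAATTG at 3 of 23, at ranks of 574, 4552 and 8956. None of these 3 was reproducible, but the one at rank 574 overlaps the reproducible region at rank 70. TGATAA, the site of GATA factors, was at 6 of the 68 (8.82% against 7.17%). GAGAGA was at 11 (16.2% against 9.34%), 7 of them at lin-11, where 3 of the 5 reproducible summits had it. The share over all reproducible summits was not counted, and the 9.34% covers all pooled-list summits, weak ones included. The median GC content of the windows was 40.6% at lin-11 and 37.6% over all summits. These matches describe letters only, and the differences were not tested.

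ceh-14 (WBGene00000438, chromosome X, 7527769 to 7532732, minus strand) had 8 pooled-list regions, none of them strong. The strongest (signal value 54.9, rank 6393), the upstream one printed above, was 3425 bp from the ceh-14 start and 1635 bp from that of dpy-7, a cuticle collagen gene. It was absent from replicate 1 and ranked 8832 in replicate 2. The next (signal value 54.3, rank 6634) lay 9580 bp downstream of the start and was the only one of the 8 in both replicates, at ranks of 10435 and 11314. One region overlapped the ceh-14 gene body, at its end (rank 8871), and was in replicate 1 alone. No pooled-list region was within 1000 bp of the start, while replicate 2 listed a weak one 393 bp upstream of it (rank 14939).

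lim-4 (WBGene00002987, chromosome X, 3869404 to 3873545, minus strand) had its best region high in one replicate only. That region (3870605 to 3871034, signal value 84.8, rank 1262) was in an intron of lim-4, 2725 bp downstream of the start. It ranked 507 in replicate 2, within that list's 560 strongest, but 11216 in replicate 1. The second (signal value 77.7, rank 1699) was in an intron of ceh-18, a POU homeobox gene, at ranks of 1303 and 4803. A region at the lim-4 start itself, in the 5′ untranslated region, was weak (signal value 38.3, rank 18943) and present in replicate 2 alone. With the 560 strongest regions of replicate 2 in place of the reproducible list, lim-4 became the fourth member with a region.

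lim-6 (WBGene00002988, chromosome X, 1072452 to 1079452, plus strand) had the second highest count, without a reproducible region. Its 12 regions had signal values of 39.9 to 68.2. The strongest (rank 2727) was intergenic, 8190 bp upstream, and ranked 6083 and 9113 in the replicates. The nearest start was that of unc-1, which encodes a stomatin-like protein, at 1809 bp. A pair of overlapping regions (ranks 7975 and 9037) lay within the gene, 101 bp upstream and 98 bp downstream of its nearest annotated start. They answered to 1 region of replicate 1 (rank 5001) and to none of replicate 2. The next strongest of the window, near pigx-1 (rank 4094) and rei-2 (rank 4610), lay 20912 bp and 17693 bp downstream of the lim-6 start. Among the 7 members, lin-11, lim-4 and lim-6 had a pooled-list summit within 1000 bp of an annotated start, as did 39.0% of protein-coding genes.

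mec-3 (WBGene00003167, chromosome IV, 10458816 to 10461867, minus strand) lay in an empty stretch. The nearest pooled-list summit was 22052 bp from its start, and 45802 bp separated the summits on either side. Of the gaps in the pooled list, 0.382% were longer, but a count of 0 in the window already requires a long gap. By genes, 2.14% had no pooled-list region in their window. In replicate 1 the stretch was 59546 bp long, exceeded by 0.0934% of gaps. In replicate 2 it was 25930 bp, exceeded by 1.97%. In that list 3 regions lay downstream of the start, at 3915 bp (rank 14225), 10225 bp (rank 5442) and 17673 bp (rank 3893). None of these 3 was in the pooled list. With flanks of 50 kb mec-3 had 18 pooled-list regions and exceeded 41.2% of genes, so its low place depends on the window.

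Genes that work with the family, or are known to lie downstream of its members, were read in the same window. So were 10 LIM domain genes without a homeobox. Of these 44 genes together, each counted once, 7 had a reproducible region (15.9%, against 20.2% of all protein-coding genes). Their median number of pooled-list regions was 11 against 8. Partners and regulators of the family, among them ldb-1, unc-86 and ceh-10, had 0 of 7, and the GABA genes tied to lim-6 had 0 of 3. Of the LIM domain genes without a homeobox, 2 of 10 had one, lim-8 in an intron (rank 457) and unc-115, which encodes an actin-binding LIM protein, 14212 bp upstream of its start (rank 223). Among the touch receptor genes downstream of mec-3 it was 1 of 8, mec-7, a beta-tubulin gene, 17858 bp upstream (rank 341). The AIY genes downstream of ttx-3 had 2 of 8, ser-2, a tyramine receptor gene, in an intron (rank 165) and ceh-23, a homeobox gene, 15078 bp downstream (rank 257).

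The last lists were those tied to ceh-14 and lin-11. Of the AFD genes, 1 of 4 had a reproducible region, gcy-23, a receptor guanylyl cyclase gene, 5433 bp upstream (rank 465). Of the vulval genes, 1 of 5 did, egl-17, which encodes a fibroblast growth factor-like ligand, 243 bp downstream of its start (rank 79). Of these 7 regions, 5 lay within 200 bp of a small RNA gene, those of unc-115, lim-8, mec-7, ser-2 and egl-17, each at a tRNA gene. The regions of ceh-23 and gcy-23 did not, but lay nearer to the starts of rpl-35 (464 bp) and W08E12.7 (365 bp). Of all 539 nuclear reproducible regions, 293 (54.4%) had no small RNA gene within 200 bp. A count over 7 regions says little about the listed genes.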

How the data were processed

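Immunoprecipitated chromatin of 2 biological replicates of 1 strain was analysed, from 4 lists of regions deposited by the authors on ce11. Per the deposited notes, each list of a replicate derives from its alignment and a control alignment, the pooled list from both replicates' alignments and that control, and the reproducible list from these 3. No source used here names the aligner, the peak caller, its thresholds or the scale of the signal value. The deposited signal value, the authors' own, ranked regions within a list, ties sharing the better rank. The deposited −log10 q values were not used. The deposited summit offset placed each summit. Gene models came from Ensembl release 115 on WBcel235, the same assembly as ce11.

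A region counted for a gene when it overlapped the gene body plus 20 kb on either side by at least 1 bp. Another 21 reproducible regions are mitochondrial and were left out of the counts around genes. Ranks, and the cuts that define strong regions, were taken over the whole lists. Windows were counted for all 19973 genes, without a statistical test, since there is 1 group and the lists hold no counts of reads. Replicate spread is shown by the replicates' own lists. A summit at a small RNA gene lay within 200 bp of it. Nearest genes were assigned by annotated starts. Counting was tested on simulated regions. Python 3.11.15, numpy 2.4.6 and pandas 2.3.3 were used. The members and gene lists were chosen with earlier results of these data known. Named genes were the members, unc-119, the nearest gene of each reproducible region and of the 3 strongest regions per member, listed genes with a reproducible region, and the 5 genes most like lin-11 that lie over 100 kb from it. egl-27 was named after its values were seen. A planned comparison of the members' proteins was not run.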

Additional observations from a re-analysis of the deposited data

How the results depend on the processing

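The 20-kb window and the list decide most of these counts. The 5 reproducible regions at lin-11 became 3 with flanks of 5 kb or 10 kb and 3 among the 280 reproducible regions of higher signal. They stayed at 5 with 50-kb flanks, 20 kb around the start, summits, merged regions and without summits at small RNA genes. No gene had more than lin-11 in any of these settings except with 10-kb flanks, where 3 genes did. Other genes with as many numbered 17, 39 and 9 with flanks of 5, 10 and 50 kb and 11 among the 280 regions. The 560 strongest regions of replicate 1 alone gave 5. Those of replicate 2 gave 7, and 1 other gene also had 7. These 7 hold 3 overlapping pairs and lack the region at pooled-list rank 454, so they mark only 4 of the 5 places. Members with a reproducible region numbered 1 in place of 3 with 5-kb flanks and 1 without summits at small RNA genes (an alternative added after seeing the data), and 3 to 4 with 1 replicate. The 23 pooled-list regions at lin-11 became 8 with 5-kb and 12 with 10-kb flanks, and 20 to 23 with 1 replicate. The share of genes with fewer regions than lin-11 was 99.0% as reported and 99.0% with each replicate alone. It was 95.6%, 96.4% and 82.0% with flanks of 5, 10 and 50 kb, 99.7% with 20 kb around the start, 99.1% by summits and per 10 kb, 97.8% with merged regions and 89.8% without regions that overlap a reproducible one (added later). For the 18 results on the other members, 131 of 174 alternative values stayed near the reported one and 43 moved. The cause of these moves was not tested. No paired analysis was possible because there is 1 group. Depth is unknown, so a region missing from 1 list is only known not to be listed there.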
